A study of Mus musculus with 18 samples.

Results

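The genes described here are 10 negative-feedback regulators of MAP kinase signaling: the dual-specificity phosphatases Dusp1, Dusp2, Dusp4, Dusp5 and Dusp6, the Sprouty genes Spry1, Spry2 and Spry4, and the Sprouty-related genes Spred1 and Spred2. They were chosen by symbol from the 24421 genes of the count table. The rule itself uses no measured value, but earlier results of these data were known when the members were chosen. All 10 passed the filter on low counts, as did 13507 genes in all, and no member overlaps another gene of the table in the RefSeq annotation of GRCm38.p6. There the phosphatase genes lie at chr17:26505591-26508472 (Dusp1), chr2:127336159-127338377 (Dusp2), chr8:34807610-34819894 (Dusp4), chr19:53529145-53541809 (Dusp5) and chr10:99263231-99267489 (Dusp6). The Sprouty genes lie at chr3:37639947-37644599 (Spry1), chr14:105891947-105896819 (Spry2) and chr18:38586247-38601347 (Spry4), and the Sprouty-related genes at chr2:117121071-117182279 (Spred1) and chr11:19924442-20024026 (Spred2).

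The samples were 4T1 cells, a mouse mammary carcinoma line of the BALB/cfC3H strain and wild-type genotype, and 4T1R1 and 4T1R2, populations of 4T1 that survived repeated exposure to 17-DMAG. 17-DMAG is a geldanamycin derivative that blocks HSP90, a chaperone of many kinases. The 6 groups are the 3 populations without drug and after 1.5 µM 17-DMAG, each with 3 libraries. The sample records give an exposure of 48 h and the series text gives 2 h, so the duration behind the treated values is not settled, and the records also differ on the conditions of selection. Each resistant population is 1 selected population of cells, and the controls are untreated cells of the same population. Counts of replicates 1 and 2 of 4T1 with 17-DMAG were more alike than those of any other pair of a group. Their chi-square per gene was 1.099, against 2.04 to 2.22 in the 17 other pairs. They were counted as 1 sample, which leaves n = 2 for treated 4T1, n = 3 for the other groups and 17 samples. Library names of 4T1R1 belong to another number series than those of 4T1 and 4T1R2. No source says whether these libraries were prepared or sequenced apart, and for any difference that 4T1R2 does not share, the name series and the population cannot be told apart in 4T1R1. The series text calls the replicates biological.

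Totals per library ran from 23354461 to 55094630 counts (median 30747713). All 7 mammary epithelial markers were detected in every group, with Krt8 between 14913 and 23850.0 normalized counts. Of 6 immune markers only Cd68 reached a mean of 10 normalized counts over the samples, none of 4 endothelial markers did, and 3 of 6 fibroblast markers did. Of the latter, Pdgfra ran from 375 to 1027 normalized counts and Col1a1 and Col1a2 reached 18.8 and 19.7, whereas Dcn and Thy1 stayed under 2 and Lum was at 0 in every sample. In bulk RNA such as this, fewer expressing cells and less RNA per cell cannot be told apart.

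As background, growth factor receptors switch on RAS, RAF, MEK and ERK in turn, and ERK then induces genes whose products shut the pathway down. DUSP proteins remove phosphate from the activation loop of MAP kinases: the Dusp1, Dusp2, Dusp4 and Dusp5 products are inducible and nuclear, whereas the Dusp6 product is cytoplasmic and selective for ERK. Sprouty and SPRED proteins act upstream, between the receptor and RAF, and SPRED proteins bring the RAS inhibitor neurofibromin to the membrane. HSP90 holds many kinases of this pathway in a folded state, and the receptor ERBB2 is a known client.

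Promoters of 4 members are shown because within each family they changed in opposite directions after 17-DMAG in 4T1, Dusp5 against Dusp1 and Spry1 against Spry2. The Spry1 rise was the smallest of these changes, and its call was lost in 7 of 28 alternative fits, as described below. Each run holds the 250 bases before the RefSeq start of the gene (GRCm38.p6), read in the direction of transcription, with matches to the CRE, AP-1, CArG, ETS, NF-κB or heat shock motifs in capitals.
Dusp5, chr19:53528895-53529144, plus strand: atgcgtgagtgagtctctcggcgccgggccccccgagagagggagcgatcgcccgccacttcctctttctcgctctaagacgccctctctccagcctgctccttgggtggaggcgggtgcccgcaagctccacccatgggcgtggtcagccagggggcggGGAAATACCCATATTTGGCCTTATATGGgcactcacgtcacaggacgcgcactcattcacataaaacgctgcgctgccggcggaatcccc
Dusp1, chr17:26508473-26508722, minus strand: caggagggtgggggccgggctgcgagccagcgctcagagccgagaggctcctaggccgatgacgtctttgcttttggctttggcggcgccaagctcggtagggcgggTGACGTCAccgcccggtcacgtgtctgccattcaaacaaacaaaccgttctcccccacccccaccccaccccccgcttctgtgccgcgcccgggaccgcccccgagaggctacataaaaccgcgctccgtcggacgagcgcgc
Spry1, chr3:37639697-37639946, plus strand: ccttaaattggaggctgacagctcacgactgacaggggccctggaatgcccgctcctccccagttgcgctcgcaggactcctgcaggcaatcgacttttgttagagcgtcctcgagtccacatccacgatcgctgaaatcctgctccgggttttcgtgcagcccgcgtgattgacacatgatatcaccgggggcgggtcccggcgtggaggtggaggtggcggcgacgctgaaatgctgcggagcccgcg
Spry2, chr14:105896820-105897069, minus strand: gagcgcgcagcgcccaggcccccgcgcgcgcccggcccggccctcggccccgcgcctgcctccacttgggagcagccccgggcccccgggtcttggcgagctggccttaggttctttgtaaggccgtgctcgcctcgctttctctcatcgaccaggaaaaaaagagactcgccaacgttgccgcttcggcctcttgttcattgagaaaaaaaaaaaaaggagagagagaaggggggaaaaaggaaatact

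The capitals in Dusp5 cover 2 adjoining CArG boxes, the motif of serum response factor, at −82 to −73 and −72 to −63 from the start. A match to an NF-κB pattern at −90 to −81 shares its last bases with the first of them. CArG boxes were found, on either strand, in 1.40% of the 27025 promoters of this length, and this NF-κB pattern in 1.40%. A commoner form of the NF-κB consensus, found in 3.75% of promoters, matched none of the 8 members that had a promoter entry. Dusp1 carries in capitals a full cAMP response element (TGACGTCA, 1.62% of promoters) at −143 to −136. Spry1 and Spry2 have no capitals: none of these motifs is in their windows, and Dusp2, Dusp6 and Spred2 had none either. Spred1 had 1 tail-to-tail heat shock dimer (TTCNNGAA, 7.10% of promoters) at −236. The other motifs searched on both strands were AP-1 (TGANTCA, 6.87%), ETS (CCGGAAGT, 2.93%), the head-to-head heat shock dimer (GAANNTTC, 6.78%), the CRE half-site (TGACG, 17.9%), which also lies within the full element, the GC box (GGGCGG, 32.9%) and TATAAA (13.0%). A match describes letters in the window and not binding. Dusp4 and Spry4 had no entry.

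Levels were compared between genes per kilobase of transcript, as normalized counts (counts scaled by edgeR's TMM factors to the mean library) per kilobase. In untreated 4T1, Dusp6 led with 1312 ± 93.4 (SD, n = 3) and Dusp4 followed with 1185 ± 32.1, and the ranges of the pair overlapped. Spry2 (791 ± 17.5), Spred2 (790.1 ± 8.02), Spred1 (701 ± 35.8) and Spry1 (692 ± 42.5) formed a middle tier. Dusp5 (360.3 ± 27.9), Dusp1 (258 ± 32.8), Dusp2 (149 ± 13.2) and Spry4 (131 ± 2.60) were lowest, each apart from its neighbour. In the untreated resistant cells Spry1 stood ninth of the list, in 4T1R1 (146 ± 24.5) as in 4T1R2 (179 ± 7.74), its range overlapping that of Dusp2 in both. After 17-DMAG, 4T1 had Dusp4 first (1166 ± 14.3, n = 2) and Spry1 next (786 ± 25.6), the latter overlapping Dusp6 (776 ± 6.39).

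**Figure D1:**
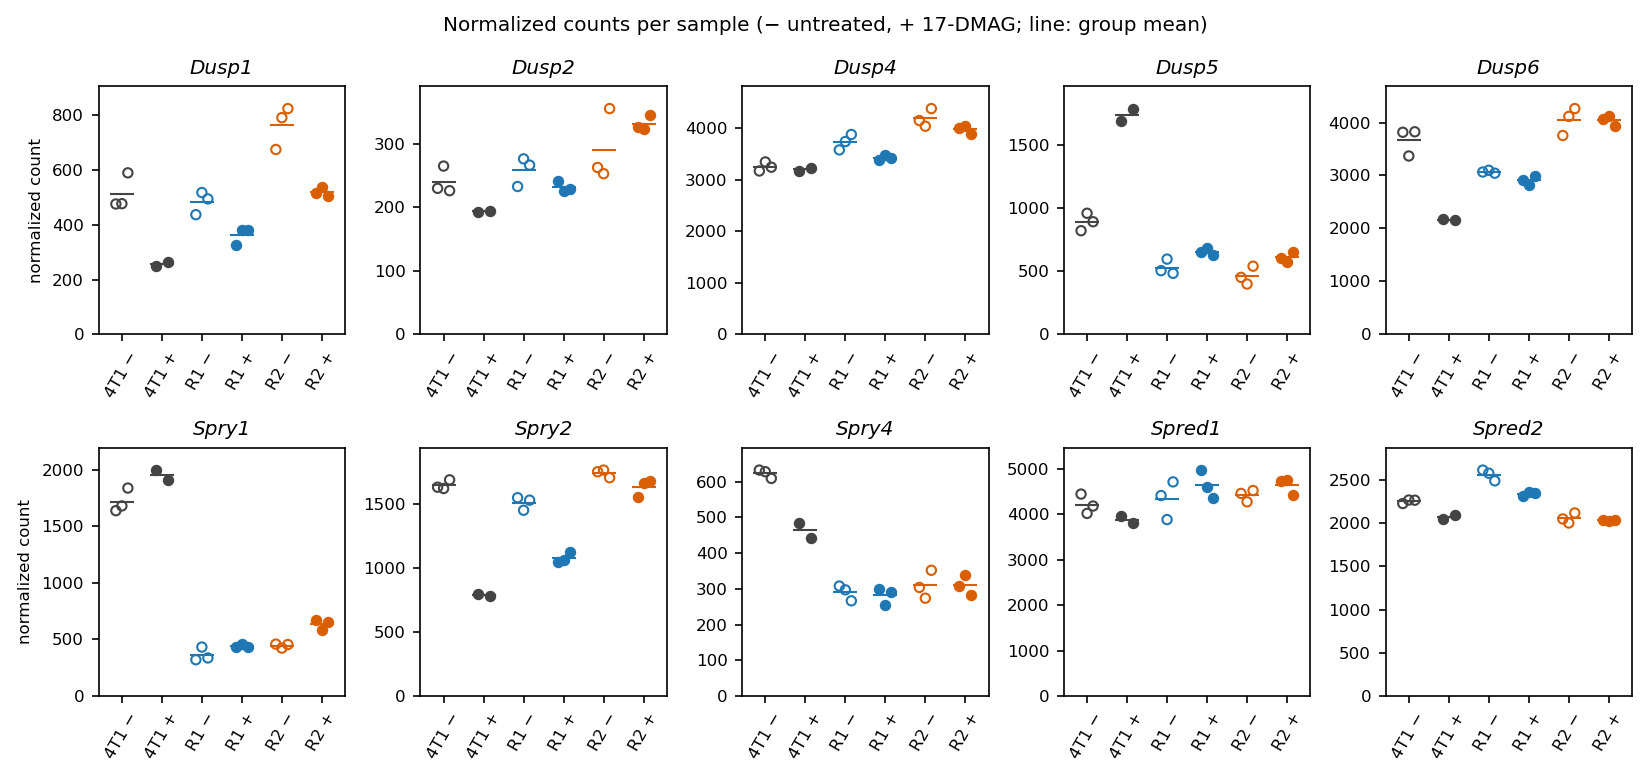
Normalized counts of the 10 genes on the vertical axis in each sample (circles, open untreated, filled 17-DMAG) of 4T1, 4T1R1 (R1) and 4T1R2 (R2), with group means as lines. Dusp5 in treated 4T1 lies at 1691 and 1789, above every other sample, and Spry1 lies between 320 and 673 in the resistant cells against 1637 to 1995 in 4T1.

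The first question was how each population answered 17-DMAG. In 4T1, 2 members rose and 5 fell by edgeR's quasi-likelihood test with Benjamini-Hochberg adjustment over all genes tested, at an adjusted P-value under 0.05. Of all 13507 genes, 18.4% were called higher and 17.9% lower there. Dusp5 and Spry1 rose, and Dusp1, Dusp6, Spry2, Spry4 and Spred2 fell. The median log2FC of the 10 was −0.22, beside 0.00064 over all genes tested. The 4T1R1 cells had 2 that rose (13.9% of all genes) and 4 fell (14.3%), with a median of −0.10 beside −0.0086. In 4T1R2, 2 rose (6.18%) and 1 fell (4.35%), with a median of 0.00062 beside −0.0019. Scaling by total counts alone moved the median of all genes by −0.11 in 4T1 and gave 1 higher and 8 lower members there, the added ones being Dusp2, Dusp4 and Spred1. That scaling gave 3 higher and 2 lower in 4T1R1, and 2 and 2 in 4T1R2. The shares of all genes given above belong to the main fit and not to this scaling.

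Among the nuclear phosphatases, Dusp1, an early-response gene whose product acts on p38, JNK and ERK, fell in each population. Its normalized counts in untreated 4T1 were 475, 477 and 589, and after 17-DMAG they were 249 and 265. In 4T1R1 they were 437, 517 and 494 untreated against 325, 381 and 381, and in 4T1R2 674, 790.3 and 823 against 515, 539 and 505. No treated sample of a population reached the level of an untreated one. On the log2 scale the change (log2FC) came to −1.01 ± 0.11 (SE) for 4T1, −0.42 ± 0.093 in 4T1R1 and −0.55 ± 0.086 in 4T1R2 (edgeR adjusted P-values 5.12e-10, 0.00067 and 1.51e-05).

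Dusp5, whose product dephosphorylates and anchors ERK in the nucleus, went the other way. Untreated 4T1 had 821, 959.6 and 892 normalized counts, and treated 4T1 had 1691 and 1789. The 4T1R1 samples had 505, 597 and 484 untreated and 649.99, 683 and 632 after the drug, and the 4T1R2 samples 452, 399 and 540.3 against 608, 576 and 656. Each treated sample thus stood above every untreated one of its population. Its log2FC came to 0.96 ± 0.081 for 4T1, 0.31 ± 0.083 in 4T1R1 and 0.40 ± 0.086 in 4T1R2 (edgeR adjusted P-values 4.47e-13, 0.0038 and 0.0012), and no alternative fit ended any of these calls.

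The remaining nuclear phosphatases moved little. Dusp2, a phosphatase best known from immune cells, ranged from 193 to 356 normalized counts over the samples and passed the test in no population, with log2FC values of −0.31 ± 0.13 in 4T1, −0.15 ± 0.11 in 4T1R1 and 0.19 ± 0.11 in 4T1R2. The 4T1 value passed under total counts alone (−0.43), with 18 separate libraries (−0.33), with replicate 1 of the like pair alone (−0.38) and without untreated 4T1R2 replicate 3 (−0.31). Leaving out untreated 4T1R2 replicate 3, which had 356 normalized counts against 263 and 253 in the other two, gave 0.36 and a call in 4T1R2. Dusp4, whose product acts on ERK and JNK, fell in 4T1R1 (log2FC −0.12 ± 0.037, edgeR adjusted P = 0.0095), where treated samples had 3371, 3473 and 3415 normalized counts against 3573, 3736 and 3872. That call was lost without untreated 4T1R1 replicate 3 (log2FC −0.096) and under total counts alone (−0.091). Dusp4 had −0.024 ± 0.042 in 4T1 and −0.075 ± 0.037 in 4T1R2.

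Dusp6, the ERK-selective cytoplasmic phosphatase, fell in 4T1. Its normalized counts were 3816, 3368 and 3825 in untreated 4T1 and 2181 and 2156 after 17-DMAG, a drop to below any other sample of the series. In 4T1R1 they were 3065, 3098 and 3043 untreated and 2921, 2824 and 2989 treated. In 4T1R2 they were 3755, 4115 and 4263 against 4066, 4129 and 3929, groups that overlap. The log2FC was −0.76 ± 0.050 in 4T1 (edgeR adjusted P = 3.68e-16), −0.076 ± 0.044 in 4T1R1 (95% interval −0.16 to 0.013) and 0.00095 ± 0.042 in 4T1R2 (−0.085 to 0.087).

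Among the Sprouty genes, which restrain receptor tyrosine kinase signaling, Spry2 gave the largest fall. Normalized counts were 1634, 1624 and 1692 in untreated 4T1 and 797 and 779 after the drug. In 4T1R1 they were 1552, 1454 and 1533 against 1049.8, 1063 and 1123, and in 4T1R2 1755, 1768 and 1709 against 1555, 1664 and 1684. The treated samples were lower in each population, without overlap. The log2FC was −1.07 ± 0.058 in 4T1 and −0.49 ± 0.050 in 4T1R1 (edgeR adjusted P-values 6.66e-19 and 3.92e-10), and −0.094 ± 0.048 in 4T1R2, which did not pass (adjusted P = 0.23).

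Spry1 rose in the 3 populations. Its normalized counts were 1637, 1679 and 1836 in untreated 4T1 and 1995 and 1905 after treatment. In 4T1R1 they were 319.6, 432 and 335 against 433, 460.2 and 429, and in 4T1R2 457, 423 and 454 against 673, 584 and 651. The groups stood apart in 4T1 and 4T1R2, and in 4T1R1 untreated replicate 2 lay among the treated samples. The log2FC came to 0.18 ± 0.072 for 4T1, 0.29 ± 0.086 in 4T1R1 and 0.51 ± 0.081 in 4T1R2 (edgeR adjusted P-values 0.041, 0.0098 and 1.50e-05). The 4T1 call was lost without untreated replicate 1 (log2FC 0.15) or 2 (0.17), without the averaged treated pair (0.15) or treated replicate 3 (0.21), with the pair's replicate 1 alone (0.18), in DESeq2 (0.18) and under total counts alone (0.068). The 4T1R1 call was lost without untreated replicate 1 (0.21) or 3 (0.24).

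Spry4, the least abundant member per kilobase, fell in 4T1 from 633, 628 and 609.5 normalized counts to 484 and 444. The log2FC was −0.42 ± 0.097 (edgeR adjusted P = 0.00053). In 4T1R1 it was −0.040 ± 0.099 and in 4T1R2 0.00028 ± 0.098, with overlapping samples in both.

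Of the SPRED genes, Spred2 fell in 4T1 (log2FC −0.12 ± 0.044, edgeR adjusted P = 0.027) and in 4T1R1 (−0.13 ± 0.039, adjusted P = 0.0098), and had −0.018 ± 0.040 in 4T1R2. The 4T1 call was lost with no filter on low counts and without untreated replicate 2 or 3 or either treated sample (−0.10 to −0.14), and the 4T1R1 call under total counts alone (−0.095). Spred1 had a log2FC of −0.12 ± 0.054, 0.099 ± 0.048 and 0.071 ± 0.048 in 4T1, 4T1R1 and 4T1R2, and passed in none. Its 4T1 value passed in 8 of 28 alternatives, among them the fits without untreated 4T1 replicate 2 (−0.15) and without untreated 4T1R1 replicate 2 (−0.12). Its 4T1R1 value passed in 4 of them, among them the fits without untreated (0.16) or treated (0.14) 4T1R1 replicate 3.

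**Figure D2:**
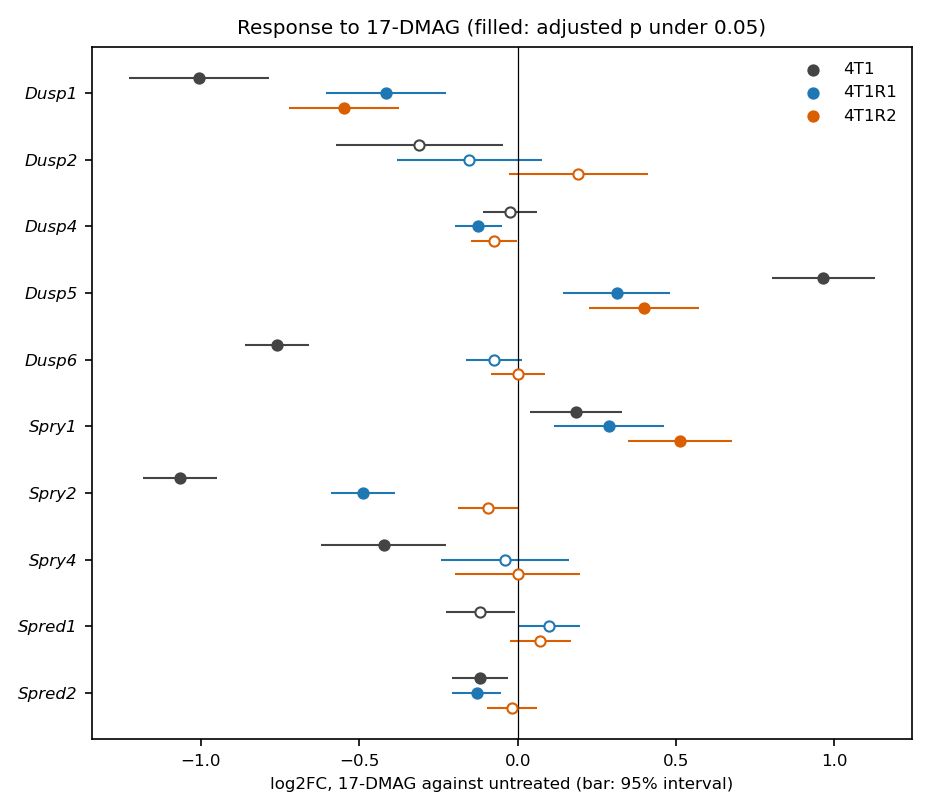
Log2FC after 17-DMAG (horizontal axis) of each gene in 4T1, 4T1R1 and 4T1R2, with 95% intervals as bars and filled points for an adjusted P-value under 0.05. Dusp1, Dusp6 and Spry2 lie between −0.76 and −1.07 in 4T1, and Dusp5 lies at 0.96.

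Whether the resistant populations answered differently from 4T1 was tested as a difference of responses. Relative to 4T1, 5 members had a higher response and 1 a lower one in 4T1R1, beside 9.16% and 9.08% of all genes, and the median difference of the 10 was 0.19 beside −0.0031. In 4T1R2, 6 were higher and 1 lower, beside 9.62% and 8.16%, with a median of 0.38 beside −0.0011. Both comparisons share the 4T1 samples. A comparison of 4T1R1 with 4T1R2 responses was not made. Spry2 differed by 0.58 ± 0.076 in 4T1R1 and 0.97 ± 0.075 in 4T1R2, and Dusp6 by 0.68 ± 0.066 and 0.76 ± 0.065. Dusp5 differed the other way, by −0.65 ± 0.12 and −0.56 ± 0.12. These 6 differences, with edgeR adjusted P-values of at most 0.00044, passed in every alternative fit. Scaling by total counts alone moved the median of all genes by 0.15 in the 4T1R1 difference.

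Dusp1 differed by 0.59 ± 0.14 in 4T1R1 (edgeR adjusted P = 0.0025) and by 0.46 ± 0.14 in 4T1R2 (adjusted P = 0.017). The second was lost without untreated 4T1 replicate 3 (0.35), the averaged treated pair (0.41) or untreated 4T1R2 replicate 1 (0.37). Spry4 differed by 0.38 ± 0.14 in 4T1R1 and 0.42 ± 0.14 in 4T1R2 (edgeR adjusted P-values 0.049 and 0.027). The 4T1R1 call held in 14 of 29 fits. It was lost with 11 of the 17 samples left out in turn: each 4T1 sample, untreated 4T1R1 replicates 2 and 3, treated 4T1R1 replicates 1 and 3, and replicate 1 of untreated and of treated 4T1R2 (0.32 to 0.45). The 4T1R2 call held in 24 of 29 fits and was lost without treated 4T1 replicate 3 (0.37), untreated 4T1R2 replicate 1 (0.41) or 2 (0.35), or treated 4T1R2 replicate 2 (0.35).

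Spred1 differed by 0.22 ± 0.072 in 4T1R1 (adjusted P = 0.028, 23 of 29 fits), Dusp2 by 0.50 ± 0.17 in 4T1R2 (adjusted P = 0.033, 23 of 29) and Spry1 by 0.33 ± 0.11 in 4T1R2 (adjusted P = 0.028, 23 of 29), all by edgeR. The Spred1 call was lost without untreated 4T1 replicate 1 (0.18), either treated 4T1 sample (0.24 and 0.19), untreated 4T1R1 replicate 2 (0.15) or treated 4T1R1 replicate 1 (0.17), and in DESeq2 (0.22). The Dusp2 call was lost without untreated 4T1 replicate 2 (0.43), either treated 4T1 sample (0.50 and 0.52), untreated 4T1R2 replicate 1 (0.43) or 2 (0.42), or treated 4T1R2 replicate 3 (0.47). The Spry1 call was lost without untreated 4T1 replicate 3 (0.28), either treated 4T1 sample (0.36 and 0.30), untreated 4T1R2 replicate 2 (0.30), or treated 4T1R2 replicate 1 (0.29) or 3 (0.31). The Spred1 difference in 4T1R2, 0.19 ± 0.072, did not pass here (adjusted P = 0.062) but did in 11 of 28 alternatives, among them the fits without untreated 4T1 replicate 2 (0.22), untreated 4T1R1 replicate 2 or 3 (0.19 in both) or treated 4T1R2 replicate 3 (0.22).

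Before treatment, the resistant populations differed from 4T1 most in Spry1. Counts of 1637, 1679 and 1836 in 4T1 stood against 319.6, 432 and 335 in 4T1R1 and 457, 423 and 454 in 4T1R2, on the normalized scale. The ranges were far apart, and the level was 4.76-fold lower in 4T1R1 (log2FC −2.25 ± 0.076) and 3.85-fold lower in 4T1R2 (−1.95 ± 0.075), with edgeR adjusted P-values of 3.55e-26 and 4.28e-24. Summed epithelial markers moved the same way, with 76634 to 77715 normalized counts in untreated 4T1, 51595 to 54121 in 4T1R1 and 59762 to 60966 in 4T1R2, and their part in the result was not tested. Spry4 was 2.15-fold and 2.01-fold lower (log2FC −1.10 ± 0.092 and −1.01 ± 0.092), with 633, 628 and 609.5 normalized counts in 4T1, 308, 297 and 267 in 4T1R1 and 304, 274 and 352 in 4T1R2. Dusp5 was 1.69-fold and 1.92-fold lower (−0.76 ± 0.081 and −0.94 ± 0.084). These 3 genes passed in both populations under each alternative fit, and treated 4T1R1 and 4T1R2 samples of Dusp5 (576 to 683 normalized counts) stayed below untreated 4T1 (821 to 959.6).

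**Figure D3:**
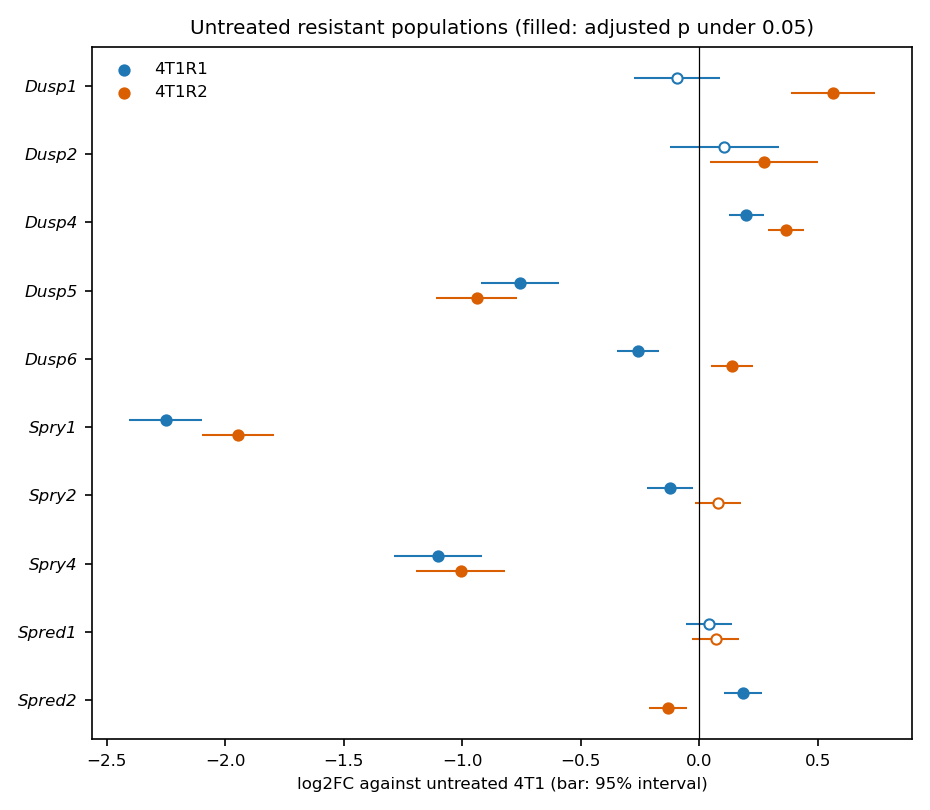
Log2FC of untreated 4T1R1 and 4T1R2 against untreated 4T1 (horizontal axis) for each gene, with 95% intervals as bars and filled points for an adjusted P-value under 0.05. Spry1 lies at −2.25 and −1.95, Spry4 at −1.10 and −1.01, and Dusp5 at −0.76 and −0.94.

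In 4T1R1, 2 members were higher and 5 lower than in 4T1, beside 25.2% and 27.5% of all genes. Their median was −0.11 beside 0.0075 for all genes. In 4T1R2, 4 were higher and 4 lower, beside 25.6% and 26.9%, with a median of 0.074 beside 0.0068. Dusp4 was higher in both (log2FC 0.20 ± 0.037 and 0.37 ± 0.037). Dusp1 was higher in 4T1R2 (0.56 ± 0.087) and had −0.093 ± 0.090 in 4T1R1. Dusp6 was lower in 4T1R1 (−0.26 ± 0.043) and higher in 4T1R2 (0.14 ± 0.043), the latter lost without untreated 4T1 replicate 2 (0.080) or untreated 4T1R2 replicate 3 (0.099). Spred2 went opposite ways, 0.18 ± 0.039 in 4T1R1 and −0.13 ± 0.040 in 4T1R2. Spry2 was lower in 4T1R1 (−0.13 ± 0.048, edgeR adjusted P = 0.026), a call lost without untreated 4T1 replicate 3 (−0.11) or untreated 4T1R1 replicate 2 (−0.097), under total counts alone (−0.098), with no filter (−0.12) and in the compared groups alone (−0.12). Dusp2 was higher in 4T1R2 (0.27 ± 0.11, adjusted P = 0.041), a call lost without untreated 4T1R2 replicate 3 (0.11) or untreated 4T1 replicate 1 (0.24) or 3 (0.23), in DESeq2 (0.28) and in the compared groups alone (0.28). Spred1 passed in neither, with 0.042 ± 0.048 and 0.069 ± 0.048. Without untreated 4T1R1 replicate 2 it was 0.11 in 4T1R1 and passed.

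Against each other, untreated 4T1R2 and 4T1R1 differed in 6 members. Dusp1 (0.66 ± 0.087), Dusp6 (0.40 ± 0.043), Spry1 (0.30 ± 0.087), Spry2 (0.20 ± 0.048) and Dusp4 (0.17 ± 0.037) were higher in 4T1R2 and Spred2 was lower (−0.32 ± 0.039). All genes gave 19.7% higher and 19.0% lower, and the medians were 0.17 for the 10 and −0.0079 for all. Spry1 lost its call without untreated 4T1R1 replicate 1 (0.22), and Dusp5 (−0.18 ± 0.088) gained one without untreated replicate 3 of 4T1R1 (−0.24) or of 4T1R2 (−0.30). This comparison also sets the 4T1R1 name series against the other.

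Per kilobase, the 3 Sprouty genes summed to 1614 ± 56.6 normalized counts in untreated 4T1, 932 ± 5.85 in 4T1R1 and 1080.0 ± 8.01 in 4T1R2. The share of Spry1 in that sum was 42.9% ± 1.13, 15.7% ± 2.62 and 16.6% ± 0.65. After 17-DMAG in 4T1, Spry1 made up 62.3% ± 0.16 (n = 2) and Spry2 29.9% ± 0.40, against 49.0% ± 0.71 for Spry2 before. Among the 5 phosphatases, the share of Dusp5 in 4T1 was 11.04% ± 0.93 untreated and 24.3% ± 0.61 treated, and that of Dusp6 was 40.2% ± 2.45 and 26.8% ± 0.61. These sums and shares are descriptions without a test.

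**Figure D4:**
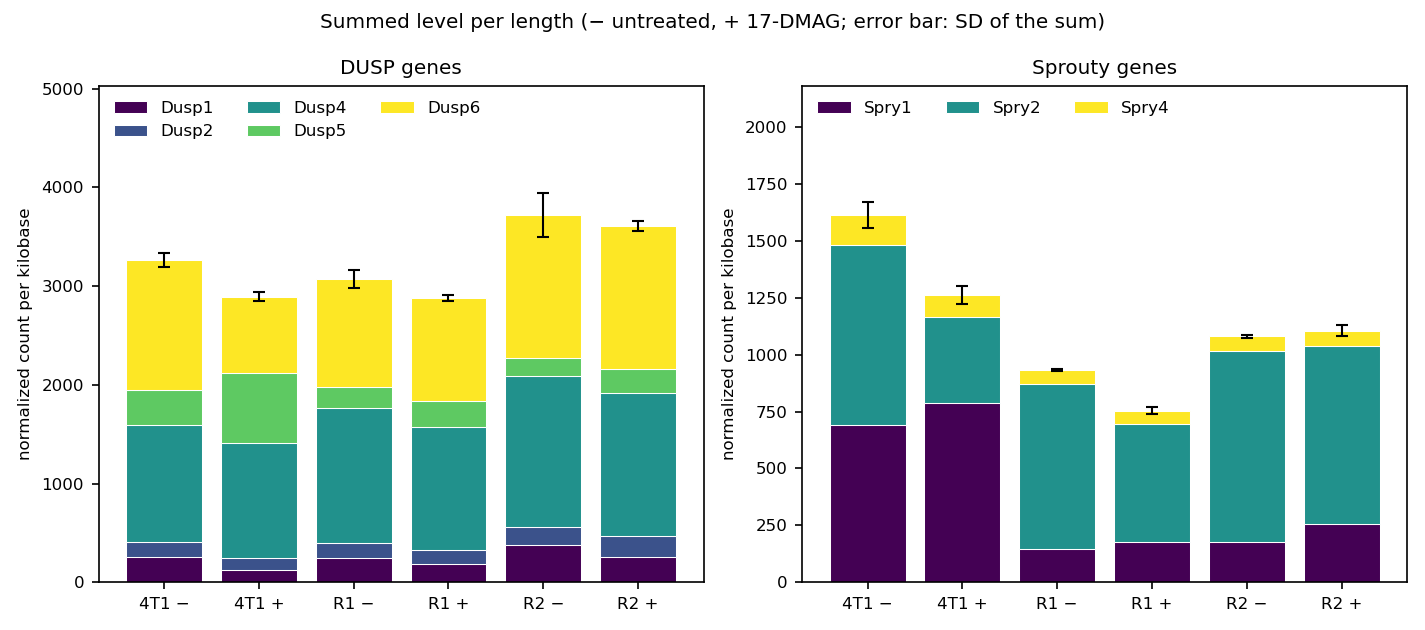
Summed normalized counts per kilobase (vertical axis) of the DUSP and Sprouty genes in the 6 groups, stacked by gene, with the SD of the sum as error bar. The Sprouty sum is 1614 in untreated 4T1 and 932 and 1080.0 in untreated 4T1R1 and 4T1R2.

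Other genes of the pathway were taken from lists, whose counts stand beside the shares of all genes called higher and lower: 18.4% and 17.9% in the 4T1 response, 13.9% and 14.3% in 4T1R1, and 6.18% and 4.35% in 4T1R2. The lists, too, were chosen with earlier results of these data known. Among 26 ERK pathway targets, the 17-DMAG response of 4T1 held 3 that rose and 18 that fell, with 3 and 13 in 4T1R1, and 3 and 7 in 4T1R2, with medians of −0.23, −0.13 and −0.044. The immediate-early transcription factor genes Fos and Egr1 had the largest changes of the list in 4T1, with log2FC −4.29 ± 0.24 and −2.87 ± 0.14. Fos went from 725 ± 220 (SD, n = 3) to 37.5 ± 3.51 normalized counts (n = 2). In 4T1R1 the values of Fos and Egr1 were −0.23 ± 0.15 and −0.071 ± 0.10, neither passing, and in 4T1R2 Fos fell by 0.86 ± 0.12 and Egr1 had −0.016 ± 0.11. Without treatment, 11 ERK targets were higher and 10 lower in 4T1R1 than in 4T1, with a median of 0.0075. In 4T1R2, 11 were higher and 7 lower, with a median of 0.064. Of all genes, 25.2% were higher and 27.5% lower in 4T1R1, and 25.6% and 26.9% in 4T1R2. These shares also go with the untreated counts of the lists below. Plau, the urokinase gene, was lower in untreated 4T1R1 (−1.26 ± 0.041) and 4T1R2 (−1.33 ± 0.041), and Atf3, a stress-induced transcription factor gene, was higher (1.20 ± 0.12 and 0.99 ± 0.12).

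Among 21 other feedback genes tested, 6 went up and 10 went down in 4T1, 3 and 7 in 4T1R1, and 1 and 3 in 4T1R2. Dusp8, a phosphatase of JNK and p38, fell in the 3 populations (−0.99 ± 0.11, −0.60 ± 0.089 and −0.32 ± 0.091). Errfi1, an inhibitor of EGFR, fell in 4T1 (−0.85 ± 0.036) and 4T1R1 (−0.42 ± 0.031) and had −0.069 ± 0.031 in 4T1R2, not passing. In the untreated comparison 9 of these feedback genes were higher and 8 lower in 4T1R1, and 5 and 8 in 4T1R2. Il17rd was higher in untreated 4T1R1 (1.04 ± 0.20) and had 0.47 ± 0.21 in untreated 4T1R2, not passing. Dusp9 was lower in both (−0.67 ± 0.048 and −0.37 ± 0.048). Of 7 EGFR family ligands tested, 2 rose and 2 fell in 4T1, 2 and 1 in 4T1R1, and 2 and 0 in 4T1R2. Areg, encoding amphiregulin, fell in 4T1 (−0.98 ± 0.074) and 4T1R1 (−0.30 ± 0.063) and had 0.014 ± 0.062 in 4T1R2, not passing. Nrg1, encoding neuregulin, rose in the 3 populations (0.64 ± 0.063, 0.19 ± 0.060 and 0.23 ± 0.064). Without the drug, 0 ligands were higher and 4 lower in 4T1R1, and 0 and 4 in 4T1R2. Tgfa and Btc were lower in untreated 4T1R1 (−0.86 ± 0.047 and −1.33 ± 0.15) and 4T1R2 (−0.84 ± 0.048 and −0.74 ± 0.14).

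Among 13 receptor tyrosine kinases tested, 1 rose and 7 fell in 4T1, 1 and 6 in 4T1R1, and 2 and 3 in 4T1R2. Erbb3 fell in 4T1 (−1.18 ± 0.13) and 4T1R1 (−0.43 ± 0.11) and had −0.23 ± 0.11 in 4T1R2, not passing. Pdgfra fell in the 3 populations (−0.89 ± 0.082, −0.25 ± 0.067 and −0.21 ± 0.065). Before treatment, 7 of these receptors were higher and 3 lower in 4T1R1, and 2 and 4 in 4T1R2. Fgfr3 and Met were higher in untreated 4T1R1 (0.46 ± 0.12 and 0.37 ± 0.027), with 0.0096 ± 0.13 and −0.050 ± 0.028 in untreated 4T1R2, neither passing. Of the 27 genes of the RAS-RAF-MEK-ERK core, 5 rose and 8 fell in 4T1, beside 18.4% and 17.9% of all genes, with a median of −0.0093. In 4T1R1 2 rose and 8 fell, and in 4T1R2 0 and 3, with medians of −0.044 and −0.010. The adaptor gene Gab1 and the ERK-activated kinase gene Rps6ka1 gave the largest changes in 4T1 (−0.58 ± 0.13 and −0.45 ± 0.052). With the drug, mean normalized counts of Gab1 went from 225 to 223 in 4T1R1 and from 224 to 208 in 4T1R2. Those of Rps6ka1 went from 2267.5 to 1939 in 4T1R1 and from 2350 to 2292 in 4T1R2. Untreated, 11 core genes were higher and 6 lower in 4T1R1, and 8 and 6 in 4T1R2. The RAF scaffold gene Ksr1 was higher in untreated 4T1R1 (1.50 ± 0.076) and 4T1R2 (1.81 ± 0.075), as was Rras in 4T1R1 (0.43 ± 0.075), with 0.15 ± 0.078 in 4T1R2, not passing. Of 14 JNK and p38 kinases tested, 2 rose and 4 fell in 4T1, 1 and 4 in 4T1R1, and 0 and 0 in 4T1R2. Mapk11 and Map3k5 fell in 4T1 (−0.41 ± 0.098 and −0.38 ± 0.057). Mean normalized counts of Mapk11 went from 520 to 492 in 4T1R1 and from 460 to 412 in 4T1R2 after the drug. Those of Map3k5 went from 2251 to 2095 in 4T1R1 and from 2384 to 2230 in 4T1R2. Before the drug, 3 of the JNK and p38 kinases were higher and 5 lower in 4T1R1, and 4 and 3 in 4T1R2. In untreated 4T1R1 Mapkapk3 was higher (0.48 ± 0.087) and Map2k7 lower (−0.37 ± 0.045), as they were in 4T1R2 (0.45 ± 0.089 and −0.37 ± 0.045).

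**Figure D5:**
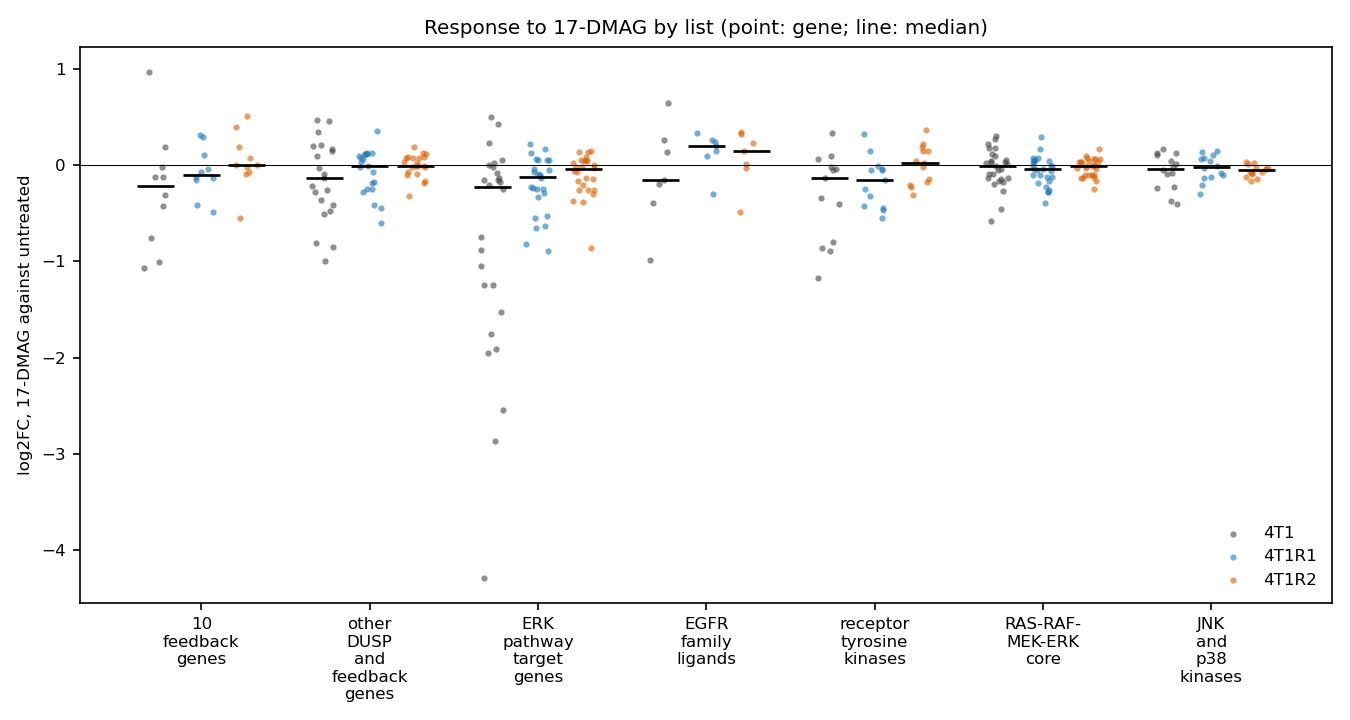
Log2FC after 17-DMAG (vertical axis) of each tested gene of the 10 feedback genes and of the 6 pathway lists, by population, with list medians as lines. The ERK target genes have medians of −0.23 in 4T1, −0.13 in 4T1R1 and −0.044 in 4T1R2.

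For each member, the genes most like it were those with the highest Pearson r of log2(normalized count + 1) over the 17 samples, which share groups and scaling. Dusp6 was most like Mtap (r = 0.95), Dpysl2 (0.95) and Fos (0.94), and Spry2 most like Kcnn4 (0.97), Tfap2a (0.96) and Areg (0.96). Dusp5 was most like Ajuba (0.98), Col4a1 (0.98) and Krt80 (0.98). Dusp1 resembled Efna1 (0.96), Ccng2 (0.95) and Clcf1 (0.94). Spry1 was most like Lipg (0.99), Krt18 (0.99) and Gusb (0.99), and Spry4 like Baz1b (0.97), Lrrc8c (0.97) and Acsl3 (0.96). The first of the 3 genes for Dusp2 was 9030624J02Rik (0.90), for Dusp4 Copg1 (0.97), for Spred1 Scai (0.87) and for Spred2 Fzd1 (0.96). Among the members themselves, Spry2 and Dusp6 had r = 0.91, Spry2 and Dusp1 r = 0.90, and Spry1 and Spry4 r = 0.90, while Dusp5 and Dusp1 had r = −0.74. These values describe the 6 groups more than 17 separate points.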

How the data were processed

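Libraries were made from rRNA-depleted RNA of 3 cell populations with and without 17-DMAG. The authors aligned reads to GRCm38/mm10 with STAR, counted them per gene with featureCounts (Subread 1.6.2, per the labels) and deposited whole-number counts without normalization. The strand setting of the counting is not given in the sources used here. Between 65.6% and 70.8% of counts from 1 to 12 were even, so a count is a read and not a fragment. Rn45s took 9.54% to 15.6% of each library.

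Libraries of like counts in treated 4T1 were averaged. Counts were fitted with edgeR 4.0.16 in R 4.3.3: filterByExpr, TMM scaling, group means without intercept over 17 samples, quasi-likelihood tests, and Benjamini-Hochberg adjustment over 13507 genes. SEs were taken from the F statistic. The common biological coefficient of variation was 0.0376. The code was tested on simulated data. Alternatives were DESeq2 1.42.0, RLE size factors, scaling by total counts, fits of the compared groups, all genes unfiltered, at least 10 counts per library, the replicate number as a block, 18 separate libraries, no Rn45s and each library left out. Replacing the like pair by either of its replicates was added after seeing the data. Figures were drawn with matplotlib 3.10.9.

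The members and lists were chosen with earlier results of these data known. Named genes were the 10 members and, from each list, the 2 largest changes past the threshold (mean normalized count of 100 or more in either group) in the 4T1 response and in untreated 4T1R1 against 4T1. For likeness, 3 genes per member were taken. Promoter sequences came from RefSeq (GRCm38.p6), with entries for 8 of 10 members. The commoner NF-κB consensus was added after the first search had matched Dusp5, and both results are given. Per-kilobase levels used transcript lengths from GENCODE.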

Additional observations from a re-analysis of the deposited data

Results flagged for a closer look

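Among the 10 genes, 13 differences of response between a resistant population and 4T1 passed edgeR's quasi-likelihood test of the difference itself (Benjamini-Hochberg adjusted, n = 2 to 3 per group). Of all genes tested, 9.16% were called higher and 9.08% lower in the 4T1R1 difference, and 9.62% and 8.16% in that of 4T1R2. On the log2 scale, as resistant minus 4T1, Spry2 differed by 0.58 in 4T1R1 and 0.97 in 4T1R2, Dusp6 by 0.68 and 0.76, Dusp1 by 0.59 and 0.46, and Spry4 by 0.38 and 0.42. Dusp5 differed by −0.65 and −0.56. In 1 population each, Dusp2 (0.50) and Spry1 (0.33) differed in 4T1R2 and Spred1 (0.22) in 4T1R1. Not all of these calls were stable. Of 29 fits, Spry4 passed in 14 in 4T1R1 and 24 in 4T1R2, and Dusp1 in 26 in 4T1R2. Dusp2 and Spry1 in 4T1R2 and Spred1 in 4T1R1 passed in 23 each. The 4T1R1 library names, treated and untreated alike, belong to another number series than those of 4T1 and 4T1R2. For a difference that 4T1R2 does not share, the name series and the population cannot be told apart.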

How the results depend on the processing

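Of 2240 values of the 80 gene results under alternatives, 2106 kept their direction and their side of the threshold, 71 lost a call, 34 gained one and 29 changed sign, the last in 12 results that had not passed the test. Many of these fits left out a sample of a group that was not compared, which hardly moves a log2FC. The 2106 therefore overstate how far the results were put to a test.

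Scaling by total counts alone gave 1 member higher and 8 lower in the 4T1 response, 2 lower in 4T1R1 and 2 lower in 4T1R2. Under it the median log2FC of all genes in the 4T1 response was −0.11. Shares of all genes called are not given for this or the other alternatives, so these member counts have no background beside them. DESeq2 gave 1 higher in the 4T1 response and 3 higher in the 4T1R1 difference, and the like pair's replicate 1 alone gave 1 higher in the 4T1 response. Leaving out each library, the 4T1 response gave 1 to 2 higher and 4 to 6 lower, and the 4T1R1 response 1 to 3 higher and 3 to 4 lower. Untreated 4T1R2 against 4T1 gave 2 to 4 higher, and 4T1R2 against 4T1R1 1 to 2 lower. The differences gave 3 to 5 higher in 4T1R1 and 3 to 7 in 4T1R2. The cause was not tested.

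The changed signs were these. In the 4T1R2 response, Dusp6 was −0.045 under total counts and −0.0014 with a minimum of 10 counts. Spry4 there was −6.51e-05 with RLE, −0.045 under total counts, −0.0021 with that minimum, −0.000118 with 18 libraries and −0.000205 in the compared groups alone. Dusp4 was 0.049 and 0.019 under total counts in the 4T1R1 and 4T1R2 differences. Spred2 in the 4T1R1 difference was 0.14 under total counts, 0.0039 with that minimum, 0.000358 with 18 libraries and 0.0016 with the pair's replicate 1. Leaving out each library, the range was −0.10 to 0.024 for Spry4 in the 4T1R1 response, −0.052 to 0.044 for Dusp6, −0.074 to 0.10 for Spry4 and −0.036 to 0.0063 for Spred2 in the 4T1R2 response. It was −0.15 to 0.019 for Dusp1 and −0.022 to 0.11 for Spred1 in untreated 4T1R1 against 4T1. In 4T1R2 against 4T1R1 it was −0.0027 to 0.25 for Dusp2, −0.0020 to 0.17 for Spry4 and −0.046 to 0.091 for Spred1. For Spred2 in the 4T1R1 difference it was −0.029 to 0.00785.

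Same-numbered replicates did not deviate together (correlations −0.055 to 0.071 over 9 pairs, 0 above 0.1), so the numbers do not pair the samples. With the replicate block, Spry4 in the 4T1R1 difference was 0.39 and no longer passed (edgeR adjusted P = 0.051), and Spred1 was −0.14 in the 4T1 response and 0.22 in the 4T1R2 difference and passed in both; no other call changed. With n = 2 in treated 4T1, leaving out a sample there leaves 1, assumed to vary like the other groups.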
